A study of Mus musculus with 4 samples.

Results

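Trefoil factors, mucins and gastrokines, the genes whose products form and maintain the mucus of the gastric surface, were examined in the stomach of congenic and wild-type mice. The group was fixed by name as Tff1, Tff2, Tff3, Muc1, Muc5ac, Muc6, Gkn1, Gkn2 and Psca, and its members were the probes whose platform annotation gives exactly 1 of these symbols. This gave 6 genes, with 1 probe each, of 13840 genes named by a probe with 1 symbol. They were Tff2 (probe 931987), Muc1 (757636), Muc6 (545002), Gkn1 (633911), Gkn2 (930703) and Psca (373184). The other 3, Tff1, Tff3 and Muc5ac, matched no probe and were not analysed here. All 6 had a value on all 4 arrays, so none was lost to a filter on low values.

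Each array held a pool of stomach RNA from 3 male mice on a chow diet, taken after 4 h without food. The congenic strain was B6.CAST-17, homozygous for its segment, for which the labels give chromosome 17 in the strain's name and no boundaries. The wild-type strain was C57BL/6J, the inbred mouse whose background the congenic strain shares. Each strain had 2 pools. The study's title asks how variation in Glp1r, the receptor for glucagon-like peptide, bears on gastric emptying, and the trefoil factor genes are close neighbours of Glp1r on chromosome 17. Values are log2 signals, differences are congenic minus wild type with the standard error (SE) of the limma fit, and n = 2 pools per strain. The labels call the pools biological replicates, so each p-value rests on how far pools of animals differ, and differences between individual mice were not measured.

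The gastric surface is covered by a gel of secreted mucins that holds bicarbonate against the epithelium and keeps acid and pepsin away from it. Surface (pit) cells secrete Muc5ac, with Tff1 and the gastrokines Gkn1 and Gkn2, and neck and gland mucous cells secrete Muc6 with Tff2. Trefoil peptides are small, protease-resistant proteins with a compact disulfide-bonded fold, secreted with mucins and known for their part in restitution of injured mucosa. Gastrokines are secreted BRICHOS-domain proteins of the stomach, Muc1 is a mucin anchored in the cell membrane, and Psca is a small lipid-anchored protein of the Ly6 family.

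Of the 6 genes, 4 matched a reference promoter in RefSeq (assembly GRCm38.p6): Gkn1, Gkn2, Muc6 and Muc1. Their 250 bases before the start are shown because Gkn1 and Gkn2 are adjacent genes with bright probes, Muc6 had the widest spread between pools, and Muc1 was the gene whose pools did not overlap between strains. They are printed 5′ to 3′ on the gene's own strand. Capitals mark the letters TATAAA and GATAA, each searched on both strands, and no 2 matches overlapped.
Gkn1 (chr6:87350916-87351165, minus strand): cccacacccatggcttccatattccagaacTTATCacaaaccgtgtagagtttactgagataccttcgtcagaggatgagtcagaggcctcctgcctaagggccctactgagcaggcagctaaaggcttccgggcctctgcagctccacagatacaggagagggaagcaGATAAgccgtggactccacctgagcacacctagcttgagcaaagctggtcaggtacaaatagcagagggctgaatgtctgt
Gkn2 (chr6:87373115-87373364, plus strand): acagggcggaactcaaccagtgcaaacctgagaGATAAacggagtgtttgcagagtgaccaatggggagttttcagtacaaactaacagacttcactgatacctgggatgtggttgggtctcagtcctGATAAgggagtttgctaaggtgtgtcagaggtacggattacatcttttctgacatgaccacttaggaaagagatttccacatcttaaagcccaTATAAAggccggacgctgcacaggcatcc
Muc6 (chr7:141655394-141655643, minus strand): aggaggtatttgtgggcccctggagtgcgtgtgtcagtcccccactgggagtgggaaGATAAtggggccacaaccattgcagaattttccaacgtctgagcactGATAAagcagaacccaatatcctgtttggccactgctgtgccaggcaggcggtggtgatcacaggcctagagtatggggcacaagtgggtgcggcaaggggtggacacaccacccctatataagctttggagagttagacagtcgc
Muc1 (chr3:89228806-89229055, plus strand): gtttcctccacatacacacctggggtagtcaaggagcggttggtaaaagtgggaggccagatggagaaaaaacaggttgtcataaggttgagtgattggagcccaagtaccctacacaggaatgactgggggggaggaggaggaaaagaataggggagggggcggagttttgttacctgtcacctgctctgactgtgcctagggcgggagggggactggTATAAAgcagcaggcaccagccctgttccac

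TATAAA lay 31 to 26 bases before the start of Muc1 and 29 to 24 bases before the start of Gkn2, and there was no match in the windows of Gkn1 and Muc6. GATAA, the core of the sequence bound by GATA factors, occurred at 2 places in each of Gkn1, Gkn2 and Muc6. One of those in Gkn1 was on the opposite strand, and there was no match in Muc1. In all 32851 RefSeq windows of this length, 12.4% held TATAAA and 22.6% held GATAA. These are matches of letters, and no binding was measured.

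None of the trefoil, mucin, gastrokine or Psca probes differed between the strains beyond the spread of the pools. In limma, 0 of the 6 members passed an adjusted p of 0.05 and 0 reached 0.05 before adjustment, and the pools of the strains did not overlap for 1, Muc1. Over all 13475 probes with a value on every array, 0.475% passed (39 higher and 25 lower), 15.8% had an unadjusted p under 0.05, and in 49.4% the strains did not overlap (23.4% higher and 26.1% lower in the congenic pools). For Gkn2 the values were the same on all arrays and were limited by their scale, as described with them. The exact permutation test of a single gene with 2 pools against 2 cannot give a p below 0.333, so single genes rest on the limma fit, which shares its variance estimate over all probes.

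**Figure D1:**
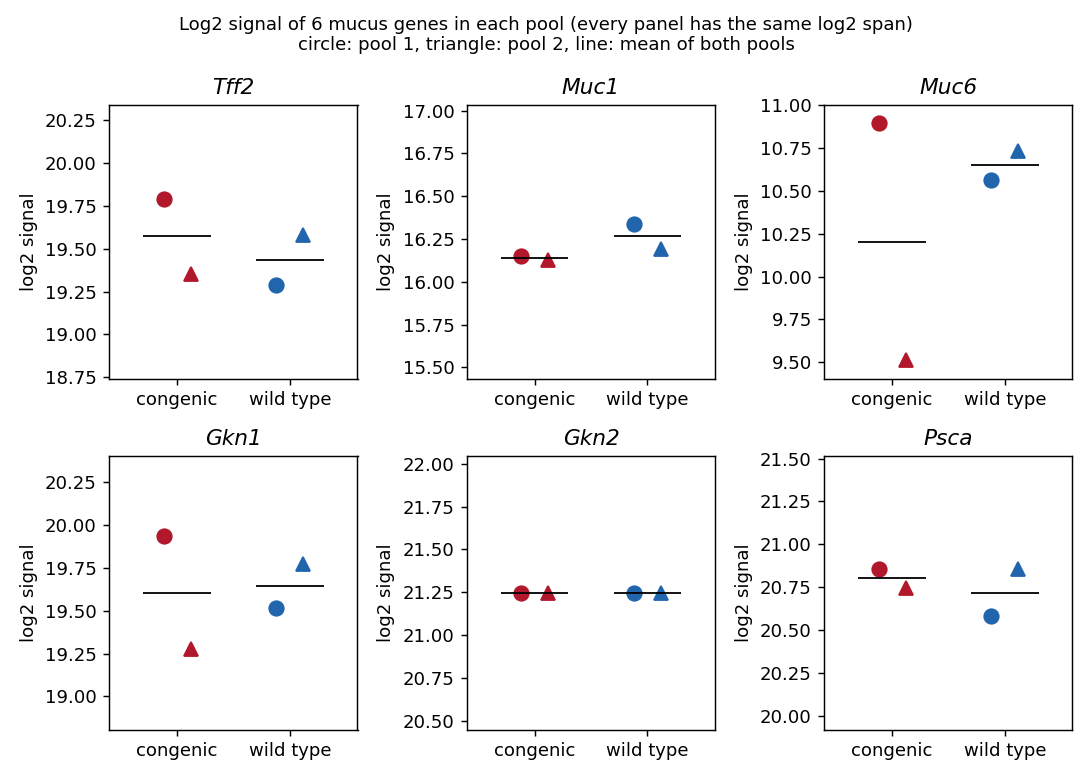
Log2 signal (y axis) of Tff2, Muc1, Muc6, Gkn1, Gkn2 and Psca in each congenic and wild-type pool (x axis), with every panel spanning the same log2 range; circles are pool 1, triangles pool 2 and lines the mean of both pools. Congenic pool 2 stands low for Muc6 at 9.51, Gkn2 is at 21.25 in all pools, and only for Muc1 do both congenic pools lie below both wild-type pools.

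Among the trefoil factors, Tff2, the mucous neck cell trefoil peptide with a pair of trefoil domains, read 19.79 and 19.35 in congenic pools 1 and 2 and 19.29 and 19.58 in wild-type pools 1 and 2. Congenic pool 1 was highest and wild-type pool 1 lowest, and the strains overlapped. The pools of 1 strain lay 0.44 apart in the congenic and 0.29 apart in the wild-type mice, and the strain means differed by 0.14 ± 0.17 (SE; limma adjusted p = 0.720). The 95% interval of the difference ran from -0.28 to 0.55, that is from 0.824-fold to 1.47-fold of the wild-type signal. The sign of the Tff2 difference turned without congenic pool 1 (-0.082) or without wild-type pool 1 (-0.0080). Whether the Tff2 probe lies over a base that differs between the CAST and C57BL/6J alleles was not tested.

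Of the secreted gel-forming mucins, Muc6, the mucin of neck and gland cells, was the member with a dim probe. It read 10.89 and 9.51 in congenic pools 1 and 2 and 10.57 and 10.73 in wild-type pools 1 and 2. Congenic pool 2 stood more than 1 log2 below the other 3 arrays, which lay close to one another, and both strains overlapped. On that array the Muc6 probe was above 5.35% of all values, against 20.6% to 27.0% on the other arrays. Its range of 1.38 over the arrays was wider than that of 97.8% of all probes compared. The strains differed by -0.45 ± 0.46 (95% interval -1.57 to 0.68; limma adjusted p = 0.659), an interval that spans values from 0.337-fold to 1.60-fold of wild type. Without congenic pool 2 the difference turned to 0.25, and without congenic pool 1 it was -1.14 (limma adjusted p = 0.301), so the sign for Muc6 rests on 1 array.

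Muc1, the membrane mucin, had the narrowest range over the arrays (0.21) of the 5 members other than Gkn2. The congenic pools read 16.15 and 16.13 and the wild-type pools 16.34 and 16.19. Both congenic pools lay below both wild-type pools, as did 26.1% of all compared probes. The difference was -0.12 ± 0.079 (95% interval -0.32 to 0.071; limma adjusted p = 0.485), which leaves room for a signal from 0.802-fold to 1.05-fold of wild type. It kept its sign under every alternative run, between -0.20 and -0.051, with no adjusted p under 0.43.

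The gastrokine Gkn1, a pit cell protein of the BRICHOS family, read 19.94 and 19.27 in congenic pools 1 and 2. In wild-type pools 1 and 2 it read 19.51 and 19.77. The highest and the lowest array for Gkn1 were both congenic, 0.66 apart, and the wild-type pools lay between them. The strain means, 19.61 in the congenic and 19.64 in the wild-type mice, differed by -0.038 ± 0.22 (95% interval -0.58 to 0.50; limma adjusted p = 0.947). The difference was -0.37 without congenic pool 1 and 0.29 without congenic pool 2, so its direction depends on which congenic pool is kept.

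Gkn2, the gastrokine encoded next to Gkn1 on chromosome 6, read 21.25 in all 4 pools. This is the highest value of each array, and the Gkn2 probe alone held it on every array. The highest value was the same on the 4 arrays, as were the values at ranks 2, 4, 8 and 13, which is how quantile normalization leaves a table. The next value down was 0.18 lower on each array. A higher Gkn2 signal in one strain therefore could not appear in these values, and a lower one could appear only if another probe had overtaken it. No error or p is given for Gkn2, and in the gene lists that hold it, it is counted as measured with a difference of 0.

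Psca, the Ly6-family surface protein, lay close to the same limit. It held rank 4 on congenic pool 1 and on wild-type pool 2, rank 8 on congenic pool 2 and rank 13 on wild-type pool 1. The corresponding signals were 20.85 in congenic pool 1, 20.75 in congenic pool 2, 20.58 in wild-type pool 1 and 20.85 in wild-type pool 2. The equal values of congenic pool 1 and wild-type pool 2 are those of the shared rank 4. The strains overlapped, with a difference of 0.083 ± 0.12 (95% interval -0.21 to 0.38; limma adjusted p = 0.761). Without wild-type pool 1 the difference turned to -0.054. Tff2 and Gkn1 lay lower in the order, at ranks 66 to 134 and 52 to 138, where the signal fell by 0.69 to 0.70 between ranks 50 and 140 on each array.

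**Figure D2:**
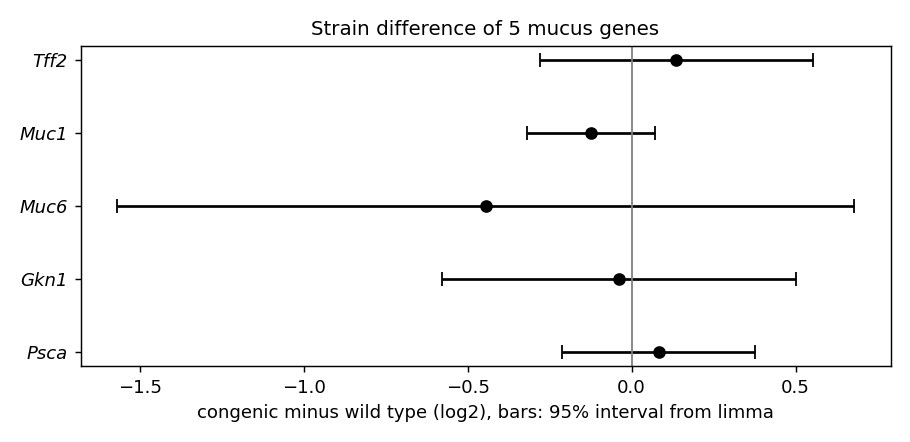
Difference between strains (x axis, log2 signal of congenic minus wild type) of Tff2, Muc1, Muc6, Gkn1 and Psca (y axis); points are the fitted differences and bars the 95% intervals from limma. All 5 intervals include 0, and the one for Muc6, from -1.57 to 0.68, is the widest.

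The arrays were ordered alike for several members. Congenic pool 1 was highest and wild-type pool 2 next for Tff2, Muc6 and Gkn1, and these 2 pools shared the top value for Psca. Congenic pool 2 was lowest for Muc6 and Gkn1, while wild-type pool 1 was lowest for Tff2 and Psca. Muc1 had another order, with both wild-type pools above both congenic pools. The pools that stood together for the first 4 genes were of different strains.

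Genes with the profile most like that of Tff2 were sought among 7681 other measured named genes, by the Euclidean distance between profiles over the 4 arrays after each probe was centred on its own mean. The nearest were Slc24a3 (distance 0.044), an exchanger of sodium, calcium and potassium, Nme7 (0.060), a member of the nucleoside diphosphate kinase family, and Ints3 (0.062), an Integrator subunit, against a median distance of 0.46. Of the other members, Gkn1 came at place 245 (0.24), Psca at 259 (0.24), Gkn2 at 2357 (0.40), Muc1 at 4595 (0.50) and Muc6 at 7264 (0.89). Gkn2 was the same on all arrays, so its distance gives only the spread of Tff2 itself and says nothing of Gkn2. Muc6 shared with Tff2 the highest pool and the next one, and not the lowest pool or the spacing. For Muc6, the member with the widest range, the nearest were Naa16 (0.17), Xlr4b (0.19) and 6030458C11Rik (0.27), against a median of 1.07. The 3 genes nearest to Tff2 read between 9.91 and 11.74, and those nearest to Muc6 between 9.23 and 11.81. The median of the compared probes was 12.82 on each array, so these were dim probes, unlike that of Tff2. With 4 arrays such likeness describes the order and spacing of the pools and was given no test.

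A wider set of genes gave no call either. The set was not confined to gastric mucous cells, and also held intestinal goblet genes, sialomucins of other cells and Ly6 proteins. In 8 lists of mucous biology, 75 genes in all were measured on all arrays. None reached the threshold in limma (0 of 75, smallest adjusted p 0.177), and before adjustment 21 (28.0%) were under 0.05, against 15.8% of all probes. The strains did not overlap in 41 genes (54.7%), near the 49.4% of all probes, and the median difference was -0.029, against -0.0020 over all probes.

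In the pit and surface mucous list, 14 of 20 genes were measured and 0 passed in limma. Before adjustment 1 of the 14 was under 0.05, against 15.8% of all probes. The list had a median difference of 0.013. Its largest difference was that of Sult1c2, a cytosolic sulfotransferase encoded on chromosome 17, which read 18.55 and 18.89 in the congenic and 18.35 and 17.99 in the wild-type pools (0.55 ± 0.16, limma adjusted p = 0.225). Both congenic pools were above both wild-type pools for Sult1c2. Fut2, the fucosyltransferase that makes the H antigen on mucins, differed by -0.53 ± 0.24, and Anxa10, an annexin of gastric epithelium, by -0.15 ± 0.074. Krt20, a keratin of mature surface cells, differed by 0.11 ± 0.068. Ctse, the aspartic protease cathepsin E of surface cells, read 20.15 and 20.21 in the congenic pools and 20.04 and 20.13 in the wild-type pools. For Cldn18, a tight junction protein of the stomach, the difference was 0.025 ± 0.081.

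Of the neck and gland mucous list, 6 of 9 genes were measured, among them Tff2 and Muc6. In limma 0 of them passed and 0 were under 0.05 before adjustment, and the median was -0.065. It was 0.12 without congenic pool 2, the array on which Muc6 stood low. Cd44, a hyaluronan receptor, differed by 0.30 ± 0.23, and Aqp5, a water channel of glands, by -0.11 ± 0.095. Wfdc2, a secreted protease inhibitor-like protein, differed by -0.098 ± 0.11.

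Enzymes that build the sugar chains of mucins were measured for 16 of 31 genes. Of the 16, 0 passed in limma and 5 were under 0.05 before adjustment, against 15.8% of all probes. The median was -0.075, with 6 genes whose congenic pools were both lower and 3 whose congenic pools were both higher. Of all probes, 26.1% lay lower and 23.4% higher in this way. B3gnt3, which extends core chains, read 14.93 and 14.85 in the congenic and 15.22 and 15.25 in the wild-type pools (-0.34 ± 0.076, limma adjusted p = 0.177). Galnt2 and Galnt4, which start O-linked chains, differed in opposite directions, by -0.31 ± 0.078 and 0.38 ± 0.14, and Fut4, a fucosyltransferase, by -0.41 ± 0.14. Gcnt3, the core branching enzyme of mucin-secreting cells, differed by 0.40 ± 0.16.

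For folding and secretion of mucins, 13 of 18 genes were measured, with a median of -0.029. In limma 0 passed and 5 were under 0.05 before adjustment, against 15.8% of all probes. The largest differences were those of Rab27a, a GTPase of secretory granules (-0.62 ± 0.18), and Creb3l1, a transcription factor of the secretory pathway (-0.44 ± 0.10). The granule GTPase Rab3d differed by -0.38 ± 0.094 and Stxbp2, which guides granule fusion, by -0.27 ± 0.080. Agr2, the disulfide isomerase needed for mucin folding, differed by 0.049 ± 0.089. Spdef, a transcription factor of mucous cells encoded on chromosome 17, differed by 0.033 ± 0.087.

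Among the other mucins and sialomucins, 4 of 16 genes were measured on all arrays and 0 passed in limma, with 1 unadjusted p under 0.05 and a median of 0.12. Cd164, a sialomucin of many cell types, differed by 0.24 ± 0.071 (limma adjusted p = 0.225), Emcn, an endothelial sialomucin, by 0.19 ± 0.15, and Muc4, a membrane mucin, by 0.037 ± 0.18. The intestinal goblet list had 4 of 11 genes measured, 0 that passed, 1 unadjusted p under 0.05 in limma and a median of 0.043. For both lists, the share over all probes to set beside the unadjusted count is 15.8%. Clca1, a secreted protein of goblet cell mucus, read 17.39 and 17.44 in the congenic and 17.23 and 17.21 in the wild-type pools (0.20 ± 0.069). Probes for the goblet genes Retnlb and Atoh1 had no value on any array.

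Transcription factors and growth factors of gastric epithelium had a median difference of -0.20. Of 25 genes, 17 were measured, 0 passed in limma and 6 were under 0.05 before adjustment. In 10 of the 17 both congenic pools were below both wild-type pools, with none the other way; over all probes 26.1% lay that way and 15.8% were under 0.05 before adjustment. Klf4, a factor of surface epithelial differentiation, read 15.59 and 15.55 in the congenic and 15.87 and 16.04 in the wild-type pools (-0.38 ± 0.085, limma adjusted p = 0.177). Gata4, a GATA factor of the gastric epithelium, read 12.91 and 12.67 against 13.35 and 13.29 (-0.53 ± 0.12). Gata6 differed by -0.35 ± 0.085, Klf5 by -0.29 ± 0.070 and Foxq1, a forkhead factor known to control Muc5ac in mouse pit cells, by -0.31 ± 0.080. Gata5 differed by 0.15 ± 0.16. The median of this list was between -0.25 and -0.13 when any 1 pool was left out.

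Other members of the Ly6 family, to which Psca belongs, were measured for 4 of 14 genes, with 0 passed and 2 under 0.05 before adjustment in limma and a median of -0.20. Ly6e (-0.22 ± 0.071), Ly6d (-0.21 ± 0.070) and Ly6c1 (-0.18 ± 0.079) are encoded on chromosome 15, as is Psca, and for each of them both congenic pools lay below both wild-type pools. Of all probes, 26.1% lay below without overlap in this way, and 15.8% were under 0.05 before adjustment in limma. Psca itself overlapped between strains. Lypd3, on chromosome 7, differed by 0.15 ± 0.086.

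**Figure D3:**
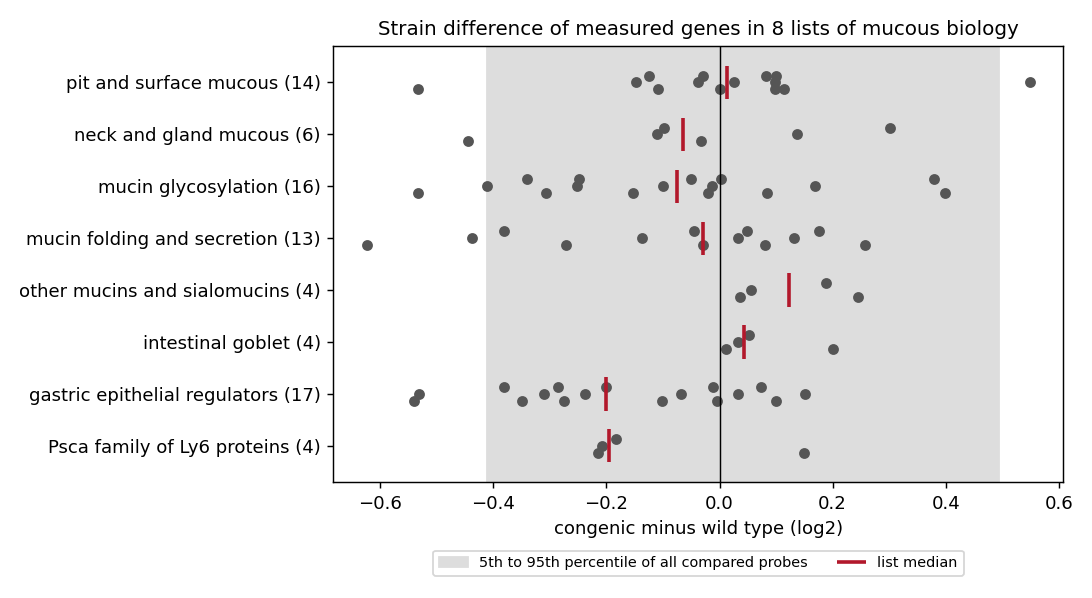
Strain differences (x axis, log2 signal of congenic minus wild type) of the measured genes in 8 lists (y axis, number of measured genes in parentheses); each point is a gene, red lines are list medians and the grey band holds the 5th to 95th percentile of all compared probes (-0.41 to 0.49). The medians of the regulators and of the Ly6 family are both -0.20, and no point in the plot passed an adjusted p of 0.05.

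On chromosome 17, Tff2 was not called, and 3 of its 20 nearest measured neighbours were. The trefoil cluster holds Tff3, Tff2 and Tff1, and in the reference gene order 3 genes lie between it and Glp1r. Glp1r (probe 591309) had a value on 1 array, wild-type pool 1, where it read 10.08. Of the 10 nearest measured genes on each side of the cluster, 2 were higher in the congenic pools, 1 was lower and the other 17 did not pass in limma. Before adjustment 10 of the 20 were under 0.05, against 132 of the 379 measured named genes of chromosome 17 and 15.8% of all probes. Of those 379 genes, 8 passed higher and 12 lower. The strains did not overlap in 14 of the 20, against 49.4% of all probes. For 15 of the 20 the difference was larger in size than that of Tff2, whose size was below the median of 0.15 over all probes.

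On the Glp1r side, the nearest measured neighbour was Glo1, the glyoxalase that clears methylglyoxal. It read 14.56 and 14.67 in the congenic and 13.87 and 13.91 in the wild-type pools, a 1.65-fold rise (0.72 ± 0.084, limma adjusted p = 0.0335). Pim1, a serine/threonine kinase, rose 2.19-fold (1.13 ± 0.11, limma adjusted p = 0.0222), while Mtch1, a carrier-like protein of mitochondria, fell by 1.23 ± 0.068 (limma adjusted p = 0.0023). Leaving out any 1 pool ended the call for Glo1 (limma adjusted p between 0.0513 and 0.244), and the call for Pim1 was lost without congenic pool 1 (0.179), congenic pool 2 (0.136) or wild-type pool 1 (0.0606). Mtch1 passed in each of these fits. With the replicate number as a block, Mtch1 passed (adjusted p 0.0188) and Pim1 (0.0892) and Glo1 (0.108) did not. Without the variance trend none of the 3 passed in limma (adjusted p 0.0585 for Mtch1, 0.0897 for Pim1 and 0.178 for Glo1).

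On the other side, the first measured gene past the cluster was Tmprss3, a membrane serine protease. It read 11.01 and 10.87 in the congenic and 9.65 and 9.42 in the wild-type pools (1.40 ± 0.25, limma adjusted p = 0.122). Rsph1, a radial spoke protein of cilia, differed by 1.17 ± 0.21 and Cbs, the enzyme that makes cystathionine from homocysteine, by 0.78 ± 0.13. Notch3, a receptor of vascular smooth muscle, differed by 0.55 ± 0.10. For Tmprss3, Rsph1, Cbs and Notch3 both congenic pools were above both wild-type pools, and none of them passed. Slc37a1, between Rsph1 and Cbs, differed by 0.0027 ± 0.12. Every measured neighbour from Pim1 to Akap8 had a positive difference, of sizes from 0.0027 (Slc37a1) to 1.40 (Tmprss3). Negative differences lay further out, those of Akap8l (-0.32) and Wiz (-0.21) on this side. Beyond Pim1 on the Glp1r side both signs occurred.

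**Figure D4:**
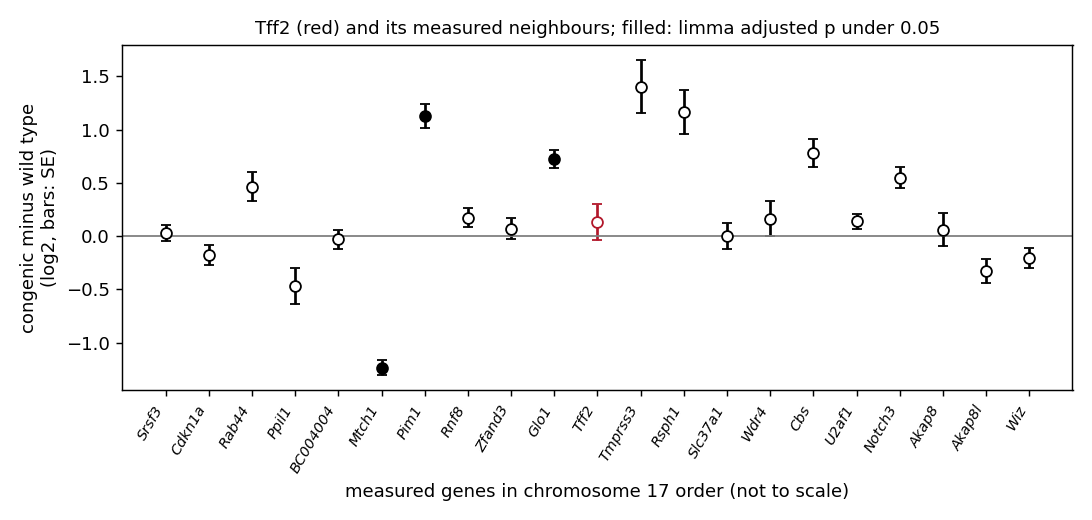
Strain differences (y axis, log2 signal of congenic minus wild type, bars are SE) of Tff2 in red and of the 10 nearest measured genes on each side in chromosome 17 order (x axis, not to scale); filled points passed a limma adjusted p of 0.05. Mtch1, Pim1 and Glo1 are filled, and Tff2 lies at 0.14 between Glo1 at 0.72 and Tmprss3 at 1.40.

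The stomach label was checked against markers by pool. The mean of the pit list differed by at most 0.038 between arrays, from 17.13 to 17.17. This mean holds Gkn2, the same on all arrays, and differences of opposite sign that offset each other, such as Sult1c2 (0.55) and Fut2 (-0.53). Atp4a, a proton pump subunit of parietal cells, read 19.58 and 19.51 in the congenic and 19.77 and 19.75 in the wild-type pools (-0.21 ± 0.079, limma adjusted p = 0.288). Atp4b, of the same list, overlapped between strains and differed by 0.041 ± 0.075. Most genes of the pancreatic list were higher in the congenic pools. Of 14 measured, 12 had a positive difference, and 10 of these passed in limma, against 0.475% of all probes. The other 2, Pnliprp2 (-0.22 ± 0.11) and Clps (-0.086 ± 0.14), were lower and did not pass. The mean of the list was 16.15 to 16.20 in the congenic and 14.60 to 14.64 in the wild-type pools. The part of pancreatic tissue in the values of the mucus genes and of the chief cell list was not tested. In enteroendocrine genes the congenic pools read 16.83 to 16.87 and the wild-type pools 17.20 to 17.25, and in limma 0 of 7 genes passed while 4 were under 0.05 before adjustment. The parietal list read 15.97 to 15.98 against 16.10 to 16.20, with 0 of 9 genes past the threshold. Of these parietal genes, 4 were higher and 5 lower in the congenic pools. The chief cell list lay the other way, at 17.07 and 17.03 in the congenic and 16.55 and 16.86 in the wild-type pools, with a median of 0.29 and 0 of 5 genes past the threshold. The chief cell list shares Clps with the pancreatic list, and Clps was its 1 gene with a negative difference. Cblif, also of the chief cell list, read 20.20 and 20.24 in the congenic pools. In wild-type pools 1 and 2 Cblif read 19.02 and 20.14. In limma 3 parietal and 2 chief cell genes were under 0.05 before adjustment. For these 2 lists and the enteroendocrine list, the share over all probes to set beside such counts is 15.8%. In whole-stomach pools, fewer cells of a type and less RNA per cell cannot be told apart.

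**Figure D5:**
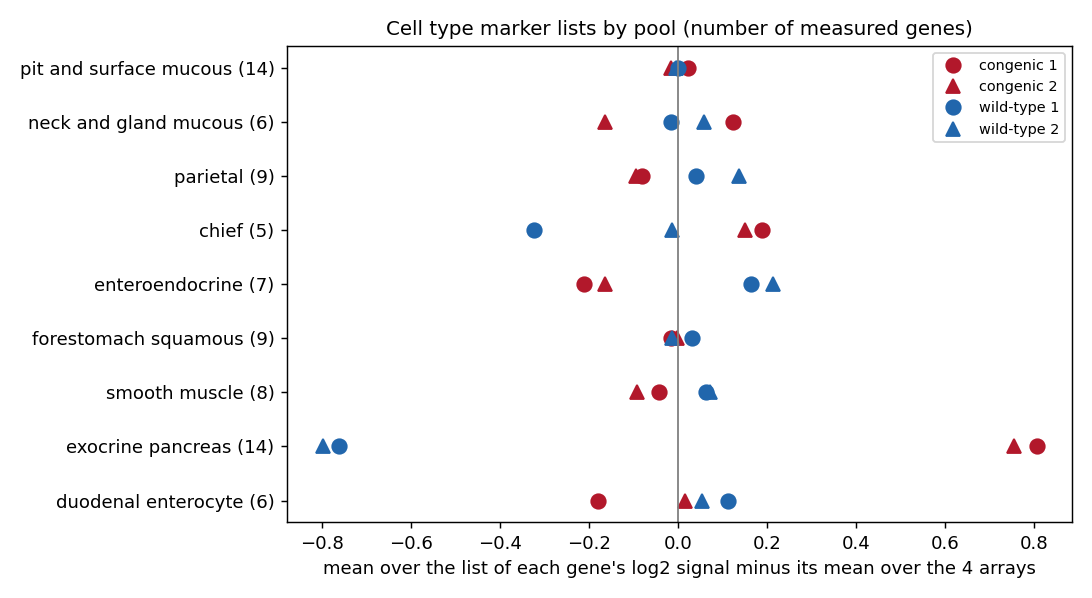
Cell type marker lists (y axis, number of measured genes in parentheses) by pool; the x axis is the mean over a list of each gene's log2 signal minus that gene's mean over the 4 arrays, circles are pool 1, triangles pool 2, red congenic and blue wild type. The pit list stays between -0.016 and 0.022, while the pancreas list lies at 0.75 and 0.81 in the congenic and at -0.80 and -0.76 in the wild-type pools.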

How the data were processed

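Digoxigenin-labelled cRNA from total RNA was hybridised to single-colour chemiluminescent arrays, per the labels' protocols. The table deposited by the authors gives a log2 signal for each probe on each array. The base of the logarithm is inferred from the range of the values. How the authors normalized them, and when a cell was left blank, is not stated in the labels. Between 16320 and 16954 probes had a value per array, and the number of arrays limits the precision. Background signal was not given.

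The platform annotation gave 1 symbol to 14411 of 33012 probes, several to 247 and none to 18354. The 13475 probes with a value on all 4 arrays were compared with limma 3.58.1 under R 4.3.3. The model had strain as its term, eBayes used a prior variance that follows the signal level (3.97 prior and 2 residual degrees of freedom), tests were two-sided, and p-values were adjusted by Benjamini-Hochberg over all of them with a threshold of 0.05. Values entered as deposited, without pseudocount or filter. Tested on data simulated for this comparison over 13475 probes, with 100 probes shifted at each size, the fit called 46% of those shifted by 1 log2 and 76% of those shifted by 2 log2; of its 127 calls, 5 were of probes left as they were.

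Where a gene had several probes, the one with the highest mean was used. Wfdc2 and Galnt2 were the genes of the mucous lists for which this arose, and their probes differed between strains in the same direction. Gene order on chromosome 17 and promoters came from RefSeq (GRCm38.p6), and no coordinates of the array's probes were used. The members and the gene lists were chosen with earlier results of these data known. Named were every member, up to 4 genes per mucous list by p, and the 10 measured genes on each side of the trefoil cluster. So were Glp1r and the 3 genes most like Tff2 and most like the member with the widest range. Muc4 and Spdef were named although genes of their lists with a lower p were not. In the other marker lists genes were not named by p, and the 10 pancreatic genes that passed were not named. Ctse, Cldn18, Gcnt3, Agr2, Foxq1, Gata5, Retnlb and Atoh1 were picked after their values were known. Alternatives were quantile normalization, median centring, leaving out probes below the median level, the replicate number as a block, variance priors without trend or robust, a threshold of 0.10, probes with a value on at least 3 arrays, the mean over the probes of a gene, and leaving out each pool. Figures were drawn with matplotlib 3.10.9.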

Additional observations from a re-analysis of the deposited data

How the results depend on the processing

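The count of mucus genes past the threshold was 0 under each of 13 alternatives in limma, and so was the count over the 8 mucous lists. Before adjustment, 1 value of a member fell under 0.05 in these fits, that of Muc6 without congenic pool 1 (limma adjusted p = 0.301). Leaving out 1 pool at a time moved the difference of Tff2 between -0.082 and 0.36, of Gkn1 between -0.37 and 0.29, of Muc6 between -1.14 and 0.25, of Psca between -0.054 and 0.22 and of Muc1 between -0.20 and -0.051. Only Muc1 kept its sign throughout, and the other alternatives turned no sign of these 5 genes. Some alternatives could change little for the members. With 1 probe each, the mean over the probes of a gene left their differences as they were. Quantile normalization, run on values the arrays already shared at several ranks, moved Tff2 from 0.137 to 0.135 and Muc6 from -0.45 to -0.50. The count of members also holds Gkn2, which was the same on all arrays. Over all probes 64 passed; the count was 35 with the replicate block, 20 without the variance trend and 110 at an adjusted p of 0.10, and lay between 15 and 168 when 1 pool was left out. The 3 calls among the neighbours of the trefoil cluster became 1 with the replicate block, 0 without the variance trend (limma, with 10 of the 20 neighbours under 0.05 before adjustment), and 1 or 2 when 1 pool was left out. The cause was not tested. The pool numbers pair nothing in the labels, and the differences between pools 1 and 2 of the strains correlated at -0.064 over probes, so the block fit serves as an alternative only. Leaving out probes below the median level removed Muc6. Values were fixed by rank at the top of the arrays, where Gkn2 and Psca lay, and were also shared at ranks 50 and 100 (19.96 and 19.51). Rank 100 lies within the span of ranks held by Tff2 and by Gkn1. Dim probes such as Muc6 had wide intervals.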
